A study of Mus musculus with 2208 samples.

Results

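NADPH oxidase and antioxidant genes were followed in single cells of the mouse hippocampus: 4 genes of the phagocyte NADPH oxidase (Cybb, Cyba, Ncf1, Ncf4), 3 peroxiredoxins (Prdx1, Prdx4, Prdx5), the superoxide dismutase gene Sod2 and the heme oxygenase gene Hmox1. These 9 of the 23951 genes in the deposited table were chosen by name for what their proteins do. CK-p25 mice (CKp25) can be induced to make p25, a shortened protein that overactivates the kinase Cdk5, in forebrain neurons, and lose neurons as a result. Their CK littermates carry the driver without the p25 transgene. Cells bearing CD11b and CD45 were sorted singly into wells from 3 CK and 3 CKp25 mice at 3 months of age before induction (0 weeks), at 3 months and 1 week (1 week of induction), and at 3 months and 2 weeks (2 weeks). At 6 weeks, aged 4 months and 2 weeks, they came from 3 CK and 4 CKp25 mice. The transgene is driven in neurons, not in the sorted cells, and age moves with the week in both genotypes.

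Phagocytes make superoxide with an enzyme whose catalytic core, encoded by Cybb and its stabilising partner Cyba, sits in the membrane, and which works only after cytosolic subunits, among them those encoded by Ncf1 and Ncf4, have docked to it. Superoxide dismutases turn superoxide into hydrogen peroxide, peroxiredoxins reduce the peroxide with electrons from thioredoxin, and heme oxygenase breaks down free heme, releasing iron. Microglia, the resident macrophages of the brain, hold both sides of this chemistry.

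Promoter windows of 250 bases before the annotated start are shown for 3 members that were higher in CKp25 mice, since a search for known motifs matched each of them at a different motif. They come from RefSeq (GRCm38.p6), whose table held 7 of the 9 members, and read 5′ to 3′ on the strand of the gene. Ncf4 and Hmox1 were not in it, so their promoters were not searched. Capitals mark the matches. Cybb lies at chrX:9469325-9469574 on the minus strand, Prdx1 at chr4:116685349-116685598 on the plus strand and Prdx4 at chrX:155338461-155338710 on the minus strand.
Cybb: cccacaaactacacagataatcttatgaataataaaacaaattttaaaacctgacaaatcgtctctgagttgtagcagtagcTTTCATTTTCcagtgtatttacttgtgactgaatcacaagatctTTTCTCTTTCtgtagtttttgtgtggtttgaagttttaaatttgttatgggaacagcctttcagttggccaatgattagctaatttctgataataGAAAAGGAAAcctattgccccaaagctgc
Prdx1: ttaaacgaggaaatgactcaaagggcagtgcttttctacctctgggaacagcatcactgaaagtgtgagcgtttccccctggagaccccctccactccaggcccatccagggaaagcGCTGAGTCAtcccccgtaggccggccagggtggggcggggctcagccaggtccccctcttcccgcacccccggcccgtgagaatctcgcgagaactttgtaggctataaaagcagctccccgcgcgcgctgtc
Prdx4: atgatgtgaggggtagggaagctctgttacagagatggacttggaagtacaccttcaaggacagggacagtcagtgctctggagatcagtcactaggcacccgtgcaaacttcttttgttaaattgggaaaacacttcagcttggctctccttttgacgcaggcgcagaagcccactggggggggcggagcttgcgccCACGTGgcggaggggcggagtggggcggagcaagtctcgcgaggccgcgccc
The Cybb window held 3 matches, on either strand, to the core of the interferon-stimulated response element (GAAA, any 2 bases, GAAA), 168, 124 and 29 bases before the start by their outermost base. Of 32851 promoters of the same length 2.98% hold that motif, and of the other members searched only Ncf1 did, at 1 place. The Prdx1 window held 1 match to TGACNNNGC, the core of the antioxidant response element, 133 bases before the start, a motif present in 10.2% of promoters. The Prdx4 window held 1 match to the E-box CACGTG, 52 bases before the start, a motif present in 6.02% of promoters. Another motif, the composite element of ETS and IRF factors (GGAA, any 2 bases, GAAA), is present in 2.30% of promoters and matched none of the 7 members. It shares its last letters with the interferon motif, and the windows of Cyba, Prdx5 and Sod2 held none of these motifs on either strand. A match describes the letters only and shows no binding.

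Of 2208 wells, 2003 were kept, 179 to 281 per group, with at least 1000 genes at 1 or more FPKM (sequenced fragments scaled to transcript length and library size). The well numbered first for each mouse was left out in all 25 mice, because these wells held a median of 10011 genes against 2292 in the others. Read depth behind single values is unknown, since FPKM keep no counts. The submitters state a median of 251353 mapped reads per cell. All 2003 kept cells carried 3 or more of 8 microglial markers, and 44 also carried 3 or more markers of another cell type. The 8 include Itgam and Ptprc, which encode the sorting markers CD11b and CD45, so the sorting itself favoured the first count. The summed level of the 8 microglial markers was nonetheless lower in every CKp25 mouse than in every CK mouse at 2 weeks (10471 to 10598 against 12743 to 22671 FPKM) and at 6 weeks (5622 to 10388 against 10787 to 13043). At 1 week it overlapped (11588 to 19088 against 18557 to 21862). The part of this in the members' results was not tested. CKp25 mouse 3 at 6 weeks kept 51 of 89 wells, and 7 wells of CKp25 mouse 2 at 6 weeks carry doubled names. No member's call at any week changed without those 7 wells. The median kept cell held 2823 ± 260 genes in CKp25 and 2570 ± 292 in CK mice at 2 weeks (SD over 3 mice), and 2473 ± 328 and 2462 ± 299 at 1 week. At 6 weeks it held 2180 ± 334 in 4 CKp25 and 2099 ± 492 in 3 CK mice.

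A gene's level in a mouse is log2(FPKM + 1) averaged over that mouse's cells. A difference is CKp25 minus CK on that scale ± its standard error from limma, with p adjusted by Benjamini and Hochberg over the 9162 genes that passed a filter on low values. All 9 members passed it. Cybb, however, passed only through CKp25 mice (7 mice, at 2 and 6 weeks), so its presence in the test already required a difference, and Hmox1 passed through 3 CK and 11 CKp25 mice.

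Both oxidase and antioxidant genes were among the members called, each in its own weeks. At 0 weeks no member differed (0 of 9 by limma, where 0% of all genes were called). At an unadjusted p under 0.05 also 0 of 9 differed, where 107 of 9162 genes did. At 1 week Prdx4 alone was called higher (1 of 9, where 3.57% of all genes were called higher). At 2 weeks Cybb, Prdx1, Prdx4 and Hmox1 were higher (4 of 9, or 3 of 8 leaving out Cybb, where 6.00% of all genes were called higher). At 6 weeks Cybb, Prdx1 and Hmox1 were higher (3 of 9, or 2 of 8 leaving out Cybb, background 4.42%). No member was lower in any week (0 of 9 by limma, also 0 at an unadjusted p under 0.05), where 0%, 0.371%, 2.23% and 1.36% of all genes were called lower at 0, 1, 2 and 6 weeks. All CKp25 mice lay above all CK mice for 0, 4, 6 and 5 members at 0, 1, 2 and 6 weeks, where 5.06%, 12.2%, 13.2% and 6.48% of all genes did so. Cybb was among these members at 1, 2 and 6 weeks. The median difference of the 9 members, Cybb included, was 0.08, 0.43, 1.16 and 0.77, against 0.03, 0.05, -0.0015 and -0.02 over all genes tested.

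**Figure D1:**
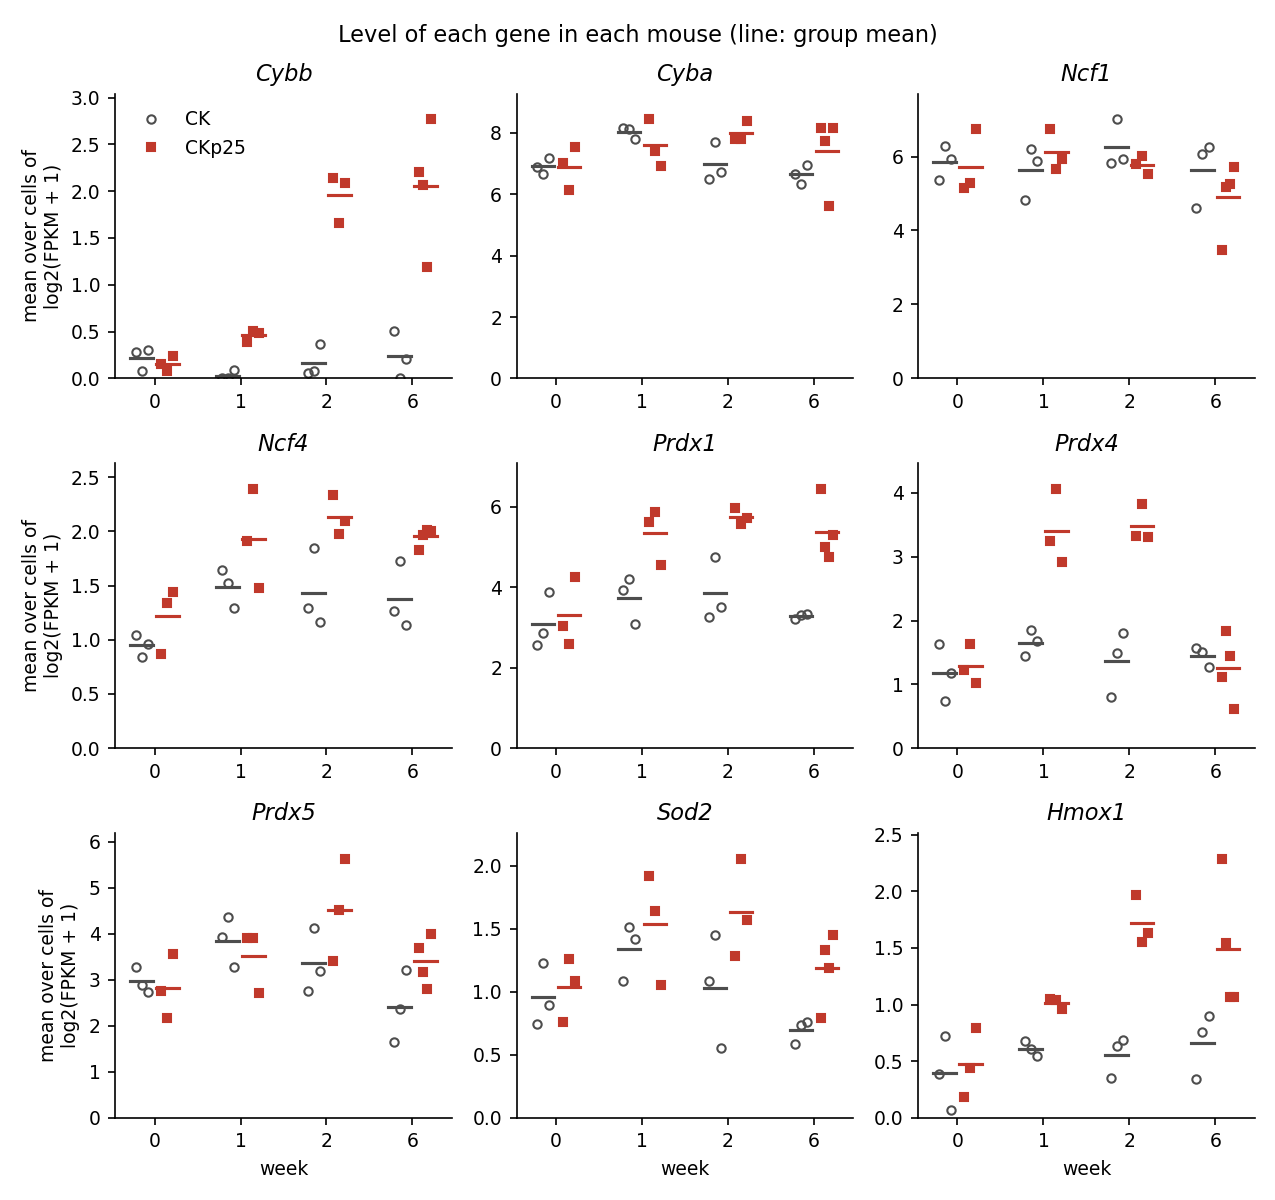
Level of each of the 9 genes (y axis, mean over cells of log2(FPKM + 1)) in each mouse by week (x axis), with CK mice as open circles, CKp25 mice as red squares and lines at group means. Cybb and Hmox1 are high in CKp25 mice at 2 and 6 weeks, Prdx4 at 1 and 2 weeks only, and Ncf1 shows no separation of the genotypes.

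Cybb, the catalytic subunit, was listed at 0 in most control cells and was found in many CKp25 cells from 2 weeks on. In CK mice its level was 0.29, 0.08 and 0.30 at 0 weeks, 0, 0 and 0.09 at 1 week, 0.06, 0.07 and 0.36 at 2 weeks, and 0.51, 0 and 0.21 at 6 weeks. In CKp25 mice it was 0.15, 0.08 and 0.24 at 0 weeks, 0.39, 0.51 and 0.48 at 1 week, 2.14, 1.66 and 2.09 at 2 weeks, and 2.21, 2.06, 1.19 and 2.77 at 6 weeks. Every CKp25 mouse from 1 week on thus lay above every CK mouse of its week. In order of mean level, CKp25 at 6 and 2 weeks came first and overlapped each other, CKp25 at 1 week followed without overlapping them, and all other groups overlapped their neighbours.

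The Cybb difference was 0.43 ± 0.23 at 1 week (adjusted p = 0.328). It was 1.80 ± 0.23 at 2 weeks (adjusted p = 1.22e-07) and 1.82 ± 0.21 at 6 weeks (adjusted p = 3.12e-08). The effect grew from 0 to 2 weeks by 1.86 ± 0.32 (adjusted p = 0.000141, where 2.08% of all genes grew), from 0 to 6 weeks by 1.88 ± 0.31 (adjusted p = 0.000134, where 1.68% did) and from 1 to 2 weeks by 1.37 ± 0.32 (adjusted p = 0.0101, where 1.33% did). Between 2 and 6 weeks it differed by 0.02 ± 0.31 (adjusted p = 0.998, where 0.0109% of all genes grew). From 0 to 1 week no member's effect changed (0 of 9 by limma, with Cybb at 0.50 ± 0.32, where 0.884% of all genes grew). Without the filter on low values the calls at 2 and 6 weeks held (adjusted p = 5.6e-05 and 3.4e-05), but the change from 1 to 2 weeks had adjusted p = 0.074.

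The share of cells with Cybb moved with its level. In CKp25 mice 34.8% ± 3.72 of cells (SD, n = 3) had it at FPKM of 1 or more at 2 weeks and 34.3% ± 10.7 (n = 4) at 6 weeks. In CK mice the shares were 4.32% ± 2.97 and 4.58% ± 4.65. At 1 week they were 7.92% ± 1.79 and 0.725% ± 1.26. Shares did not overlap at 1, 2 or 6 weeks (exact permutation over mice, 2-sided p = 0.1, 0.1 and 0.0571, the smallest that 3 against 3 and 4 against 3 can give). Among cells with the gene, its mean log2(FPKM), with no 1 added, was 5.53 ± 0.21 in CKp25 and 3.00 ± 1.37 in CK mice at 2 weeks, the latter over few cells. Every level in cells with a gene given below is on that scale. Mean FPKM over all cells was 38.2 ± 12.7 in CKp25 and 3.18 ± 5.27 in CK mice at 2 weeks, and 37.6 ± 22.1 and 3.08 ± 3.50 at 6 weeks.

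Blood-borne phagocytes carry the same oxidase, so their markers were measured beside it. Among 7 monocyte markers Plac8 rose at 2 weeks (0.89 ± 0.11, adjusted p = 8.08e-08), from 0.717% ± 0.622 of cells in CK mice to 13.3% ± 0.399 in CKp25 mice. The summed level of the 7 markers was 25.5 to 30.0 FPKM in CKp25 and 0.283 to 20.6 in CK mice at 2 weeks, and 6.54 to 56.8 and 0.789 to 27.9 at 6 weeks. Chil3 and F13a1 were among those listed at 0 in all CKp25 cells at 2 weeks, and Chil3 and Vcan were at 6 weeks. Of 6 neutrophil markers, 5 (S100a8, S100a9, Camp, Ngp, Mmp8) were listed at 0 in CKp25 cells at both weeks and in CK cells at 2 weeks. In CK cells at 6 weeks all of these but Ngp were listed at 0. The summed level in CKp25 cells was therefore that of 1 marker only. It ranged from 86.6 to 134.8 in CKp25 against 67.6 to 188 in CK mice at 2 weeks. At 6 weeks that range was 87.2 to 135.5 against 63.0 to 76.9. Only 1 CKp25 cell at 2 weeks and 0 at 6 weeks carried 3 or more monocyte markers. Without the 44 cells carrying 3 or more markers of another type, the Cybb difference was 1.82 at 2 weeks and 1.78 at 6 weeks. The part of Plac8-bearing cells in the Cybb result was not tested.

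Cyba, the partner that holds Cybb in the membrane, was abundant in every group and passed the test in no week. Mean FPKM, which is scaled to transcript length, was 289 to 572 for Cyba and 0.21 to 38.2 for Cybb over the 8 groups. Its level at 2 weeks was 6.50, 7.71 and 6.71 in CK and 7.80, 7.82 and 8.39 in CKp25 mice, without overlap. At 6 weeks it was 6.65, 6.33 and 6.96 in CK and 8.15, 7.75, 5.63 and 8.15 in CKp25 mice, with mouse 3 below all others. The difference was 1.03 ± 0.55 at 2 weeks (adjusted p = 0.296) and 0.77 ± 0.51 at 6 weeks (adjusted p = 0.516), and without CKp25 mouse 3 the latter was 1.37 ± 0.46 (adjusted p = 0.0708). Highest was CK at 1 week (8.15, 8.14 and 7.79), and neighbouring groups overlapped throughout.

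The cytosolic organiser gene Ncf1 had the opposite sign to Cyba and Cybb at 2 and 6 weeks, and it passed the test in no week. Its level at 6 weeks was 4.6, 6.06 and 6.26 in CK and 3.46, 5.18, 5.26 and 5.71 in CKp25 mice, so the genotypes overlapped. The difference was 0.47 ± 0.56 at 1 week, -0.48 ± 0.56 at 2 weeks and -0.74 ± 0.53 at 6 weeks (adjusted p = 0.733, 0.698 and 0.562). Its share of cells was 76.7% to 89.6% over all groups, and its mean level in cells with the gene at 2 weeks was 6.50 ± 0.05 in CKp25 and 6.95 ± 0.28 in CK mice. Ncf4, which binds a phosphoinositide of the phagosome membrane, had a share of cells of 35.6% ± 2.73 in CKp25 and 23.1% ± 5.53 in CK mice at 2 weeks. Its level was 2.34, 1.98 and 2.1 in CKp25 against 1.29, 1.85 and 1.16 in CK mice at 2 weeks, and 1.83, 1.97, 2.02 and 2.00 against 1.26, 1.73 and 1.13 at 6 weeks. All CKp25 mice lay above all CK mice at both weeks, but the differences of 0.70 ± 0.29 and 0.58 ± 0.27 did not pass (adjusted p = 0.133 and 0.265).

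Cells with transcripts of all 4 oxidase genes were rare in controls. They made up 17.1% ± 2.33 of CKp25 cells at 2 weeks (43 of 255 cells), 9.01% ± 3.29 at 6 weeks (22 of 227) and 3.02% ± 0.586 at 1 week (8 of 264). In CK mice they made up 0% at 0 and 6 weeks (0 of 271 and 0 of 179), 0.362% at 1 week and 0.351% at 2 weeks (1 of 269 and 1 of 281). Cyba and Ncf1 were present in most cells of every group, so that Cybb and Ncf4 set the upper bound of this share. A cell held a mean of 5.21 ± 0.125 of the 9 members in CKp25 and 3.58 ± 0.494 in CK mice at 2 weeks. Between pairs of members over the cells of a group, 288 Spearman correlations lay between -0.11 and 0.28, which is weak for sparse values and is given as a description only.

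**Figure D2:**
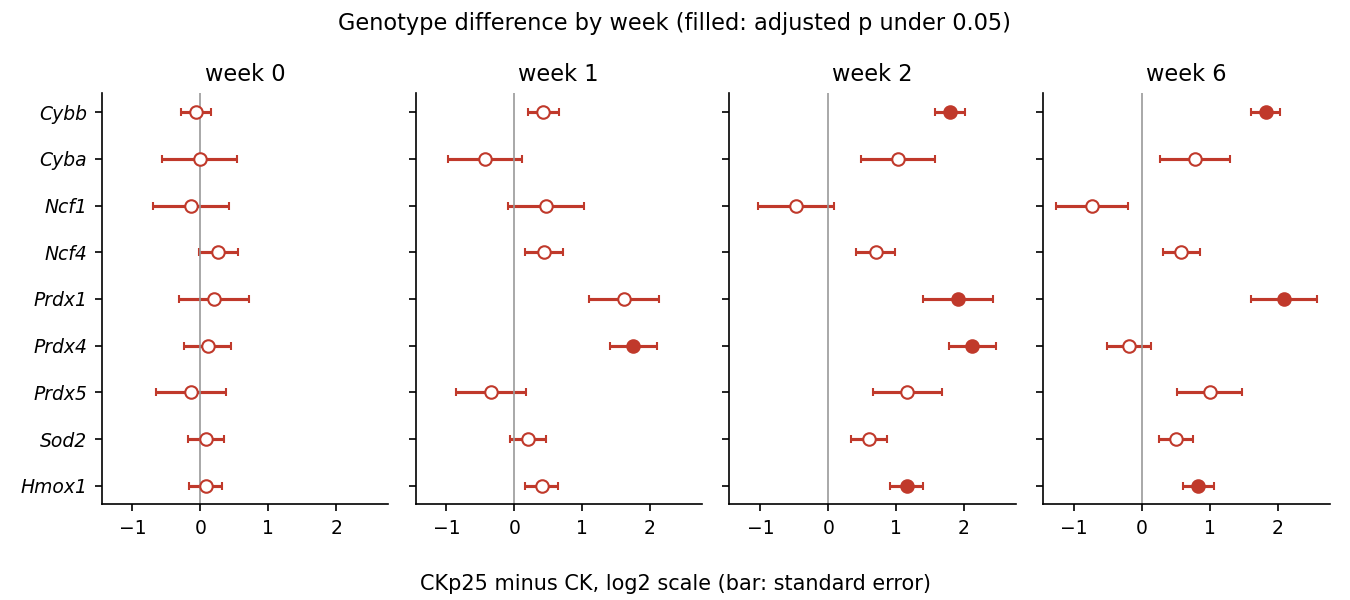
Difference in level (x axis, CKp25 minus CK on the log2 scale, bars for the standard error) of each gene (y axis) at weeks 0, 1, 2 and 6, filled where adjusted p was under 0.05. No gene is filled at week 0, Prdx4 alone at week 1, 4 genes at week 2, and Cybb, Prdx1 and Hmox1 at week 6.

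Prdx4 and Prdx1, peroxiredoxins of the endoplasmic reticulum and of the cytosol, rose in CKp25 mice, Prdx4 at 1 and 2 weeks and Prdx1 at 2 and 6 weeks. For Prdx4 the level in CK mice was 1.44, 1.84 and 1.68 at 1 week, 0.80, 1.49 and 1.81 at 2 weeks, and 1.56, 1.5 and 1.27 at 6 weeks. In CKp25 mice it was 3.25, 4.06 and 2.92 at 1 week and 3.32, 3.83 and 3.31 at 2 weeks, all above the CK mice. At 6 weeks it was 1.11, 1.83, 1.45 and 0.61 in CKp25 mice, which straddled the CK range, and before induction 1.22, 1.63 and 1.03 against 1.63, 0.74 and 1.18. The groups CKp25 at 2 and at 1 week were highest and overlapped each other, and the other 6 groups lay below both.

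Prdx4 rose by 1.76 ± 0.35 at 1 week (adjusted p = 0.0008) and by 2.12 ± 0.35 at 2 weeks (adjusted p = 2.5e-05), and at 6 weeks the difference was -0.19 ± 0.33 (adjusted p = 0.850). Its effect at 2 weeks exceeded that at 0 weeks by 2.01 ± 0.49 (adjusted p = 0.013). Leaving out CK mouse 1 of 0 weeks (1.79, adjusted p = 0.0689) or of 2 weeks (1.73, adjusted p = 0.0765) ended this call. From 2 to 6 weeks the effect fell by 2.32 ± 0.48 on the log2 scale (adjusted p = 0.0418, where 0.0327% of all genes fell), which passed in 9 of 25 omissions of 1 mouse. From 0 to 1 week the effect moved by 1.65 ± 0.49 (adjusted p = 0.109).

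The share of cells with Prdx4 moved in the same way. It was 47.9% ± 12.4 in CKp25 and 21.8% ± 4.37 in CK mice at 1 week, 52.2% ± 5.86 and 20.7% ± 7.19 at 2 weeks, and 19.4% ± 7.76 and 20.1% ± 2.09 at 6 weeks. Mice of the 2 genotypes did not overlap at 1 and 2 weeks (exact permutation, 2-sided p = 0.1 for each). In cells with the gene, its level in CKp25 less that in CK mice was -0.45 at 1 week, 0.15 at 2 weeks and -0.79 at 6 weeks, so the mean level and the share of cells rose together while the level per cell with the gene did not.

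For Prdx1, the level in CK mice was 3.94, 4.21 and 3.08 at 1 week, 3.26, 4.76 and 3.52 at 2 weeks, and 3.21, 3.30 and 3.34 at 6 weeks. In CKp25 mice it was 5.63, 5.88 and 4.57 at 1 week, 5.98, 5.56 and 5.72 at 2 weeks, and 6.44, 4.99, 4.77 and 5.30 at 6 weeks. All CKp25 mice lay above the CK mice of their week at all 3 times, whereas at 0 weeks the values interleaved (2.56, 2.86 and 3.87 in CK, 3.05, 2.60 and 4.26 in CKp25 mice). Prdx1 rose by 1.91 ± 0.52 at 2 weeks (adjusted p = 0.0131) and by 2.09 ± 0.48 at 6 weeks (adjusted p = 0.00329), and the difference at 1 week was 1.62 ± 0.52 (adjusted p = 0.0689). The 1-week difference did pass among cells with at least 2000 genes (2.1, adjusted p = 0.0103), with rescaled cells (adjusted p = 0.0297), after quantile normalization (adjusted p = 0.0151), and without CKp25 mouse 3 of that week (2.02, adjusted p = 0.0277), CK mouse 2 of 2 weeks (adjusted p = 0.0471) or CKp25 mouse 1 of 6 weeks (adjusted p = 0.0468). Leaving out CK mouse 1 (adjusted p = 0.11), CK mouse 3 (adjusted p = 0.061) or CKp25 mouse 1 (adjusted p = 0.0558) ended the call at 2 weeks. No change of the effect between weeks passed (2 less 0 weeks 1.70 ± 0.73, adjusted p = 0.287).

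The share of cells with Prdx1 was 83.4% ± 2.27 in CKp25 and 56.5% ± 10.5 in CK mice at 2 weeks, and 76% ± 4.37 and 50.03% ± 1.91 at 6 weeks. In cells with the gene its level was 6.88 ± 0.11 and 6.77 ± 0.15 at 2 weeks, with overlap. Prdx5, the peroxiredoxin of mitochondria and peroxisomes, overlapped between genotypes in every week. Its level at 2 weeks was 3.41, 4.52 and 5.62 in CKp25 and 2.76, 4.11 and 3.19 in CK mice. The difference was -0.34 ± 0.51 at 1 week, 1.17 ± 0.51 at 2 weeks and 0.99 ± 0.48 at 6 weeks (adjusted p = 0.8, 0.177 and 0.298), and without CKp25 mouse 1 it was 1.72 ± 0.55 at 2 weeks (adjusted p = 0.0483).

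**Figure D3:**
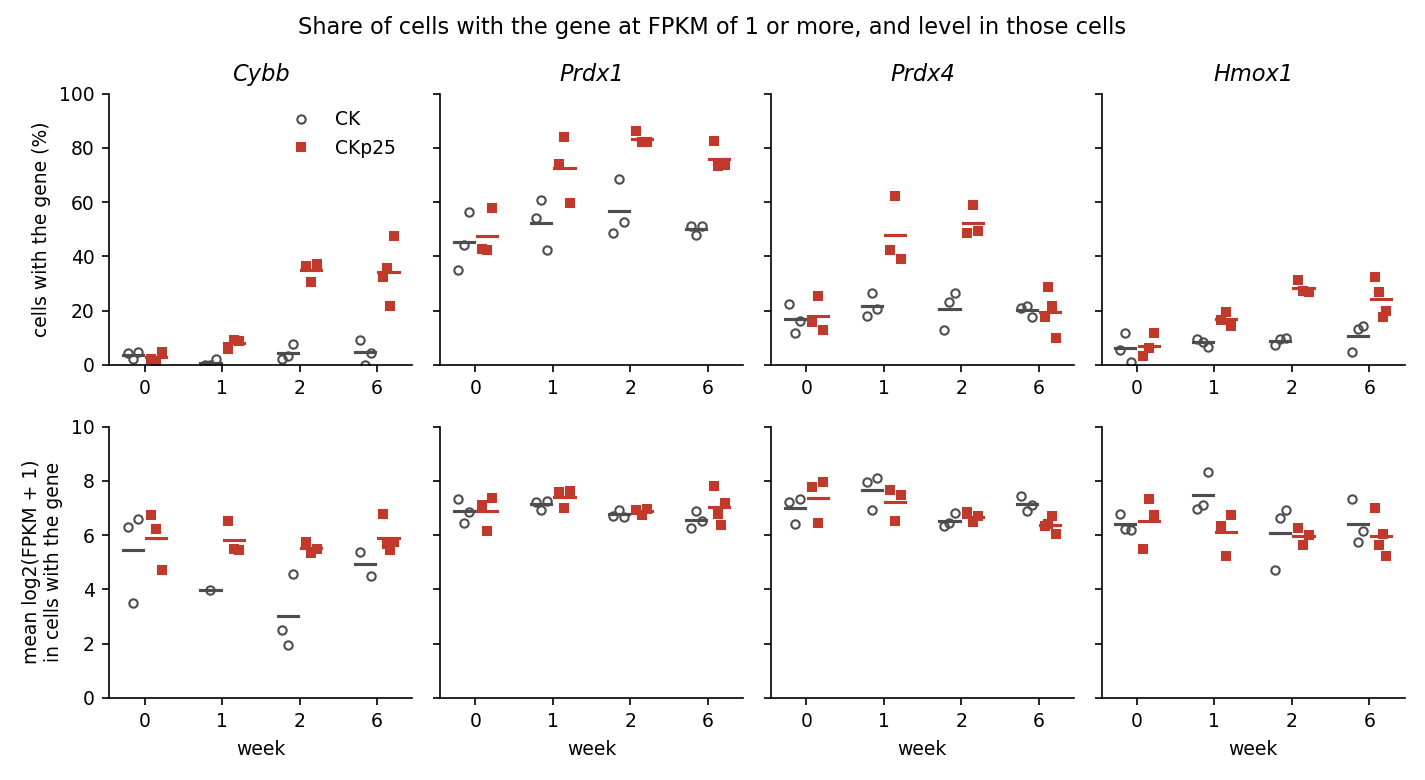
Top, share of cells (y axis, %) with Cybb, Prdx1, Prdx4 or Hmox1 at FPKM of 1 or more in each mouse by week (x axis). Bottom, mean log2(FPKM) in those cells only, with no 1 added although the axis label shows it. CK mice are open circles, CKp25 mice red squares, and lines are group means. Shares separate the genotypes at 2 weeks for all 4 genes, while at that week the levels in cells with Prdx1, Prdx4 or Hmox1 overlap.

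Sod2, the dismutase of the mitochondrial matrix, was in 40.4% ± 7.99 of the cells of CKp25 mice and 22.6% ± 10.3 in CK mice at 2 weeks, but its level did not pass the test. The level was 1.28, 2.05 and 1.57 in CKp25 and 1.09, 1.45 and 0.55 in CK mice at 2 weeks, with overlap, and 0.79, 1.33, 1.19 and 1.45 against 0.59, 0.74 and 0.76 at 6 weeks, without. The differences were 0.60 ± 0.27 and 0.50 ± 0.25 (adjusted p = 0.179 and 0.332). In cells with the gene the level was 3.88 ± 0.28 in CKp25 and 4.47 ± 0.14 in CK mice at 2 weeks.

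Hmox1, the inducible heme oxygenase, rose at 2 and 6 weeks. In CK mice its level was 0.67, 0.61 and 0.54 at 1 week, 0.35, 0.63 and 0.69 at 2 weeks, and 0.34, 0.75 and 0.89 at 6 weeks. In CKp25 mice it was 1.05, 1.04 and 0.96 at 1 week, 1.96, 1.55 and 1.63 at 2 weeks, and 2.29, 1.54, 1.07 and 1.06 at 6 weeks. Every CKp25 mouse lay above every CK mouse at these 3 times, and at 0 weeks the mice overlapped. CKp25 at 2 and 6 weeks were highest and overlapped each other, and CKp25 at 1 week lay between them and all CK groups.

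The Hmox1 difference was 0.41 ± 0.24 at 1 week (adjusted p = 0.414), 1.16 ± 0.24 at 2 weeks (adjusted p = 0.000946) and 0.83 ± 0.23 at 6 weeks (adjusted p = 0.0178). Leaving out CK mouse 1 (0.67, adjusted p = 0.13) or CKp25 mouse 1 (0.56, adjusted p = 0.126) ended the call at 6 weeks. It also ended without the filter on low values (adjusted p = 0.080) and with only the 2 groups of that week (adjusted p = 0.144). From 0 to 2 weeks the effect moved by 1.08 ± 0.34 (adjusted p = 0.0891). Its share of cells was 28.5% ± 2.36 in CKp25 against 8.91% ± 1.35 in CK mice at 2 weeks, and 24.2% ± 6.74 against 10.7% ± 5.3 at 6 weeks. Its level in cells with the gene was 5.97 ± 0.32 and 6.09 ± 1.20 at 2 weeks, and CKp25 less CK was -1.37 at 1 week and -0.43 at 6 weeks. Mean FPKM over all cells at 1 week was 24.1 ± 8.68 in CKp25 and 33.1 ± 22.0 in CK mice, so the direction at 1 week turned with the summary. Border-associated macrophages, which take up heme, have 6 markers in the lists, and the summed level was 2.45 to 13.5 FPKM in CKp25 and 0.611 to 138.6 in CK mice at 2 weeks. At 6 weeks it was 45.0 to 195 and 1.04 to 73.6, with 7 CKp25 and 3 CK cells carrying 3 or more of them, and without all cells with markers of another type the Hmox1 difference was 1.20 at 2 weeks and 0.80 at 6 weeks.

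Whether a call stood depended on how cells were summed. A mouse profile made as the log2 of its mean FPKM weights cells by their level and kept only Cybb, by 3.99 at 2 weeks (adjusted p = 0.0029) and 3.44 at 6 weeks (adjusted p = 0.0058). Prdx4 then had 0.79 at 1 week (adjusted p = 0.55) and 1.53 at 2 weeks (adjusted p = 0.057), Prdx1 0.76 at 2 weeks (0.36) and 1.14 at 6 weeks (0.093), and Hmox1 1.05 (0.49) and 0.98 (0.50). In that setting the median of all genes was -0.17, -0.35 and -0.17 at 1, 2 and 6 weeks. Among cells with 1500 to 3500 genes, Cybb was higher by 1.62 at 2 weeks (adjusted p = 1.5e-06) and Prdx4 by 1.37 (adjusted p = 0.014). There Prdx4 at 1 week (1.35, adjusted p = 0.080) and Prdx1 and Hmox1 at 2 weeks (1.44 and 0.86, adjusted p = 0.078 and 0.053) did not pass, while Prdx1 and Hmox1 at 6 weeks did (2.23 and 1.00). A pseudocount of 0.1 or 10 in place of 1 rescaled the called differences to 1.27 to 3.16 and 0.43 to 1.25, and all 8 calls held.

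Control mice over time gave the background of the series. No gene differed between CK mice at 1, 2 or 6 weeks and CK mice at 0 weeks (limma, 0 of 9162, or 0%; 1017, 604 and 279 at an unadjusted p under 0.05). Among the members 1, 0 and 0 had an unadjusted p under 0.05. That member, found after its values were seen, was Cyba, by 1.12 ± 0.55 at 1 week (adjusted p = 0.448).

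Of 68 other genes listed for these pathways, 45 passed the filter on low values. At 1 week 1 was higher and 1 lower, at 2 weeks 3 were higher and 2 lower, and at 6 weeks 0 were higher and 1 lower, where 3.94%, 8.23% and 5.78% of all genes were called in either direction. The median difference of the 45 was 0.26, 0.31 and 0.16. Of 8 partners of the oxidase, none passed in any week (0 by limma). At an unadjusted p under 0.05, 0 differed at 1 week and 1 was higher at 2 and at 6 weeks each. Of all 9162 genes 1561, 1842 and 1426 differed in either direction at that threshold at 1, 2 and 6 weeks. Rac2, the GTPase of the active oxidase, differed by 1.22 at 2 weeks and 1.04 at 6 weeks. Nox4, a homologue of Cybb, was found in at most 0.758% of cells of a group.

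In the thioredoxin list (10 tested), Txn1, the cytosolic thioredoxin that recycles peroxiredoxins, was higher at 1 week by 1.01 ± 0.26 (adjusted p = 0.017). The call ended on leaving out CK mouse 3 (0.83, adjusted p = 0.137) or CKp25 mouse 2 (0.80, adjusted p = 0.174), and among cells with 1500 to 3500 genes (0.47, adjusted p = 0.535). At 2 weeks the mitochondrial thioredoxin gene Txn2 was higher by 1.07 ± 0.34 (adjusted p = 0.0376). Leaving out CK mouse 1 or 3 (0.77 and 1.16) or CKp25 mouse 1, 2 or 3 (1.11, 1.07 and 1.03) ended that call. The glutaredoxin gene Glrx was higher by 1.01 ± 0.28 (adjusted p = 0.0168), which CK mouse 3 (0.86) and CKp25 mice 2 (0.89) and 3 (0.91) each ended when left out. Among cells with 1500 to 3500 genes neither Txn2 (adjusted p = 0.176) nor Glrx (adjusted p = 0.239) passed, nor did either with a pseudocount of 10 (0.0888 and 0.0728) or without a filter on low values (0.101 and 0.0814). Txnip, which binds and inhibits thioredoxin, fell at 2 weeks by 1.96 ± 0.51 on the log2 scale (adjusted p = 0.00885). Its level was 2.91 to 3.91 in CKp25 and 4.77 to 5.99 in CK mice, and leaving out CK mouse 2 (-1.61, adjusted p = 0.0583) or CKp25 mouse 3 (-1.76, adjusted p = 0.0687) ended the call.

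In the glutathione list (7 tested), Gsto1, a glutathione transferase, was higher at 2 weeks by 1.09 ± 0.28 (adjusted p = 0.00815), with overlap between mice. CK mice 1 (0.94) and 3 (0.94) and CKp25 mouse 3 (0.83) each ended that call when left out. The peroxidase gene Gpx4 differed by 0.83 and Gpx1 by 0.39 at 2 weeks, uncalled. Of 10 tested heme and iron genes, Slc40a1, the iron exporter ferroportin, fell in all 3 weeks, by 1.59 ± 0.47 (adjusted p = 0.0426), 2.14 ± 0.47 (adjusted p = 0.00173) and 2.04 ± 0.44 (adjusted p = 0.00151) on the log2 scale. At 2 weeks its share of cells was 33.7% ± 4.03 in CKp25 and 67.3% ± 7.56 in CK mice, and its level of 1.63 to 1.82 in CKp25 mice lay below the 3.53 to 4.33 of CK mice. The 1-week call passed in 17 of 25 omissions of 1 mouse (highest adjusted p = 0.206, without CKp25 mouse 2 of 1 week), and that at 6 weeks ended without CK mouse 2 (-1.33, adjusted p = 0.0898). The call at 2 weeks stood in all 25. The 1-week call also ended in 8 of 15 other settings, among them at least 2000 genes per cell (adjusted p = 0.0567), 1500 to 3500 genes (0.152), a pseudocount of 10 (0.0551) and no filter on low values (0.124). The ferritin genes Fth1 and Ftl1, which store iron, differed by 2.14 and 0.90 at 2 weeks without passing.

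The 8 tested regulators and targets of the transcription factor Nrf2 had no call (0 by limma). At an unadjusted p under 0.05, 1 was higher at 1 week and 2 were higher and 1 lower at 2 weeks. At 6 weeks 0 differed. Of all 9162 genes 1561, 1842 and 1426 differed in either direction at that threshold at 1, 2 and 6 weeks. The median difference of the 8 was 0.50, 0.58 and 0.37. Nfe2l2, which encodes Nrf2, differed by 0.56, 1.14 and 0.80, and Nqo1, a classic target, was found in at most 0.725% of cells of a group. Sod1 and Cat, the cytosolic dismutase and catalase, differed by 1.01 and 0.08 at 2 weeks, also without passing (0 by limma in any week). At an unadjusted p under 0.05, 1 of these 2 genes was lower at 1 week, and 0 differed at 2 and 6 weeks. The counts over all genes given above for that threshold apply here too. These lists were drawn up with earlier results of the same data known.

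**Figure D4:**
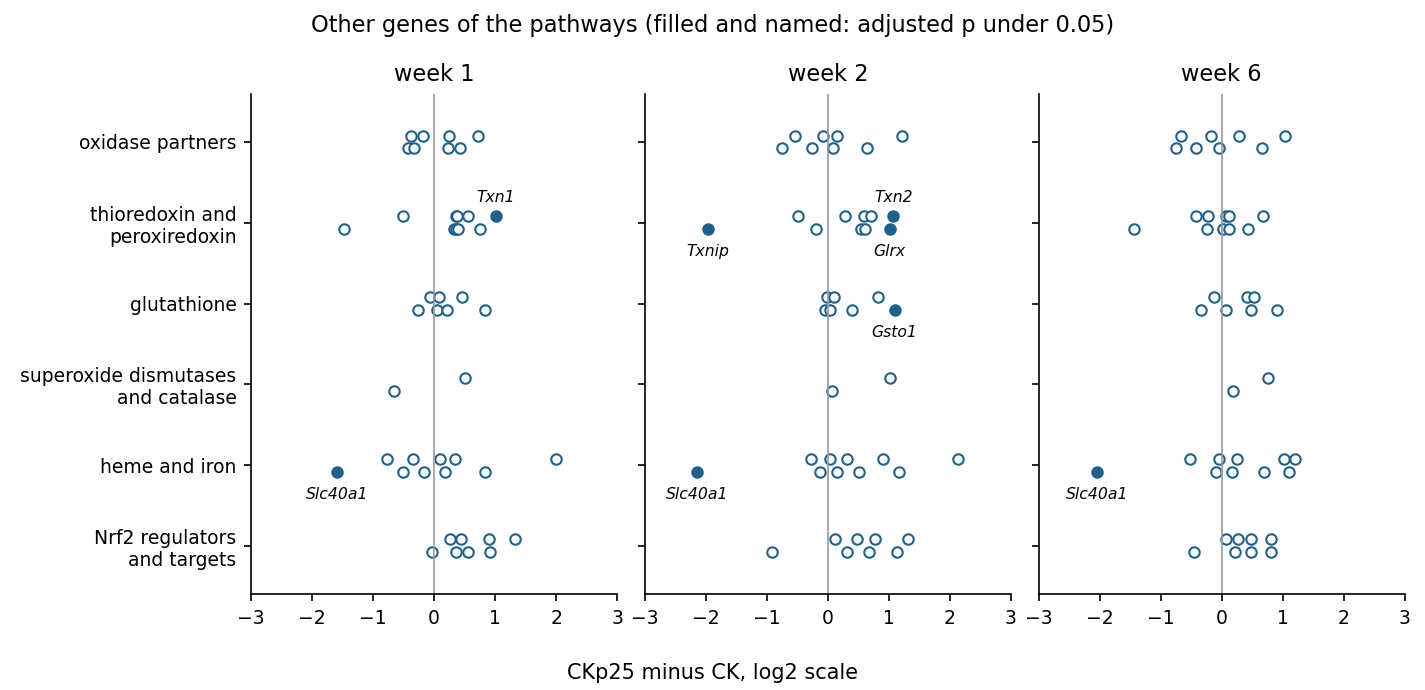
Difference in level (x axis, CKp25 minus CK on the log2 scale) of the 45 tested genes of 6 pathway lists (y axis) at weeks 1, 2 and 6, 1 point per gene, filled and named where adjusted p was under 0.05. Slc40a1 lies at -1.59, -2.14 and -2.04, and Txnip at -1.96 at week 2.

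Among all tested genes, those whose level followed a member most closely over the 25 mice were found by Pearson's r, given as a description, since genes of a mouse share cells and depth. Mice of all groups were pooled and group means were not removed. Genes high in the same groups as a member therefore tend to a high r, whether or not they are regulated together. The closest to Cybb were the interferon-induced genes Oas2, Oasl2 and Sp100 (r = 0.98 for each). For Prdx4 they were Pkmyt1, Stmn1 and Cdk1, known from the cell cycle (r = 0.92, 0.89 and 0.88). Prdx1 was followed by the ribosomal protein genes Rplp0 and Rpsa and by Lap3 (r = 0.93, 0.93 and 0.92), and Hmox1 by Rtcb, Gnb2l1 and the interferon-induced gene Rtp4 (r = 0.90, 0.88 and 0.88). The closest to the other members were Ly86 for Cyba, Bin1 for Ncf1, Rpl8 for Ncf4, Arpc3 for Prdx5 and Itpripl2 for Sod2 (r = 0.90, 0.87, 0.86, 0.91 and 0.85).

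Cells were then split by the closest gene of Cybb, Prdx4, Hmox1 and Prdx1, a split chosen after these values were seen. At 2 weeks Cybb was found in 44.7% ± 3.08 of CKp25 cells with Oas2 (120 cells) and in 26.3% ± 6.43 of those without (135 cells), and at 6 weeks in 42.3% ± 12.04 and 27.2% ± 9.48. CK cells without Oas2 had 4.33% ± 2.95 at 2 weeks and 3.86% ± 3.61 at 6 weeks. Prdx4 was found in 75.9% ± 26.4 of CKp25 cells with Pkmyt1 at 1 week (34 cells) and in 43.7% ± 11.4 of those without (230 cells), where CK cells without Pkmyt1 had 21.3% ± 3.98. By CKp25 mouse the shares with and without Pkmyt1 were 90.0% and 36.0%, 92.3% and 56.8%, and 45.5% and 38.3%. With and without Rtcb, Hmox1 was found in 33.2% and 16.1% of CKp25 cells at 2 weeks. CK cells had 3.89% and 7.06%, 6.37% and 9.38%, 12.8% and 6.22%, and 10.5% and 11.6% at 0, 1, 2 and 6 weeks. With and without Rplp0, Prdx1 was found in 83.5% and 66.7% of CKp25 cells at 2 weeks, the latter over 4 cells. CK cells had 46.8% and 31.2%, 52.4% and 59.0%, 60.2% and 25.8%, and 49.9% and 52.1% at 0, 1, 2 and 6 weeks. CKp25 cells with the closest gene held more genes in all (3631 against 2374.5 for Pkmyt1 at 1 week and 3070 against 2621 for Oas2 at 2 weeks), and the part of this in the difference was not tested.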

How the data were processed

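The authors deposited 1 table of FPKM per gene and well, made from libraries of a modified Smart-seq2 protocol. Cufflinks 2.2 and genome build mm9 are named, per the submitters' processing notes. Annotation, strand setting and filters are not given in the sources used here. Columns without a sample numbered 0, and 0 columns were identical. Of all values 90.0% were 0, also Gapdh in 19.6% of kept cells, so a 0 is read only as listed at 0. No counting interval was computed.

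Computed here (Python 3.11.15, R 4.3.3): wells needed 1000 or more genes detected at FPKM of 1, and the well numbered first for its mouse was dropped (25 wells dropped, 180 below the minimum). Without those 25 wells 2183 remain, the library number the submitters state. The mouse was the replicate. limma 3.58.1 (trend and robust options, 17 residual degrees of freedom) was fitted to the mean log2(FPKM + 1) of 25 mice in 8 groups, for the 9162 genes that 3 or more mice had at FPKM of 1 in 10% or more of their cells, 2-sided, with Benjamini-Hochberg adjustment and a threshold of 0.05. Fold changes on this scale understate the change of low genes. The fit was tested on simulated data. Doublets were not called, and cells were neither clustered nor named. Named genes were the 9 members, listed pathway genes past the threshold with a few listed genes beside them, cell type markers, and for each member the 3 genes of highest Pearson's r over mice. The members, lists and tests were chosen with earlier results of these data known. Mouse numbers shared between genotypes were not used to pair the mice: the labels tie no number to a shared litter or batch, and of 12 same-numbered pairs 8, not all, had a correlation of deviations over 0.1. The marker lists for monocytes, neutrophils and border-associated macrophages are given beside the results, and those for T or NK cells, B cells, neurons, astrocytes, oligodendrocytes, endothelial and erythroid cells had 3 or more markers in 0 to 4 cells of a group. Alternatives were other limits on genes per cell, pseudocounts, summaries, scalings, filters, fits, a replicate block, and leaving out wells or 1 mouse.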

Additional observations from a re-analysis of the deposited data

Results flagged for a closer look

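Cyba in CKp25 mouse 3 at 6 weeks stood apart from the other 3 mice of its group, with a level of 5.63 against 7.75 to 8.15. Its gap to the nearest mouse, divided by the range, exceeded Dixon's 95% critical value for 4 samples. The 9 members were tested in that 1 group, and chance flags about 1 in 20.

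For Cybb the genotype effect was larger at 2 weeks than at 0 weeks by 1.86, at 6 weeks than at 0 weeks by 1.88, and at 2 weeks than at 1 week by 1.37. For Prdx4 it was larger at 2 weeks than at 0 weeks by 2.01, and at 6 weeks it differed from that at 2 weeks by -2.32. Each was flagged by an interaction test, with adjusted p of 0.000141, 0.000134, 0.0101, 0.013 and 0.0418 (limma). Cybb passed the filter on low values only through 7 CKp25 mice at 2 and 6 weeks. A larger effect at those weeks was therefore favoured by its being tested. Without that filter its change from 1 to 2 weeks did not pass. The Prdx4 changes passed in 23 and 9 of 25 omissions of 1 mouse, in the order given.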

How the results depend on the processing

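The 8 calls of a member in a week were recomputed under 15 alternatives and with each of 25 mice left out. Of 120 alternative values 109 kept their side of the threshold, 11 lost the call and 0 changed sign. Of 28 uncalled results with 420 values, 5 passed (Cybb at 1 week with only the 2 groups, Prdx1 at 1 week in the other 4) and 17 changed sign.

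The count of higher members at 1 week, 1, became 2 with at least 2000 genes per cell, rescaled cells, quantile normalization or only the 2 groups, and 0 with cells of 1500 to 3500 genes or the log2 of the mean FPKM, which gave 1 at 2 weeks and 1 at 6 weeks. Cells of 1500 to 3500 genes gave 2 at 2 weeks. With the mouse number as a replicate block (8 residual degrees of freedom, 12 same-numbered pairs, 8 correlating best with their own number, r from -0.13 to 0.34) it was 2, through Prdx1 (adjusted p = 0.029), and no other member's call at any week changed. For the effect at 2 less 0 weeks the count, 2, was 1 with at least 2000 genes, 1500 to 3500 genes or the log2 of the mean FPKM. At 6 less 0 weeks it was 0 with that log2. At 2 less 1 weeks it was 0 with that log2, no filter or limma without trend. At 6 less 2 weeks the 1 lower member was 0 with at least 500 or 2000 genes, 1500 to 3500 genes, a pseudocount of 10, the log2 of the mean FPKM, no filter, quantile normalization or limma without trend. With 1 mouse left out the counts were 1 to 2 at 1 week, 3 to 4 at 2 weeks and 2 to 3 at 6 weeks. For the effects they were 0 to 1 (1 less 0 weeks), 1 to 3 (2 less 0) and 0 to 1 lower (6 less 2). The cause of these shifts was not tested.

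Some uncalled values changed sign. At 0 weeks Cyba was 0.059 with at least 500 genes, 0.092 with at least 2000, 0.013 as log2 of the mean, 0.026 without cells with markers of another type (chosen after seeing the data) and 0.074 after quantile normalization. Ncf1 was 0.19 with at least 2000 and 0.021 with 1500 to 3500 genes, Prdx5 0.037 with at least 2000 and 0.15 as log2 of the mean, and Sod2 -0.20 as the latter. At 1 week Sod2 was -0.12 with 1500 to 3500 genes, and as log2 of the mean Ncf1 was -0.075, Sod2 -0.11 and Hmox1 -0.30. At 6 weeks Cyba was -0.040 after quantile normalization, and Prdx4 0.030 with 1500 to 3500 genes (share of cells 2.31 points) and 0.021 with the block. Among effects, Hmox1 at 1 less 0 weeks was -0.67 as log2 of the mean and at 6 less 2 weeks 0.14 with 1500 to 3500 genes. With at least 2000 genes, 2 less 1 weeks gave -0.059 for Prdx1 and -0.10 for Prdx4, and 6 less 2 weeks -0.0028 for Prdx1. Cybb at 6 less 2 weeks was -0.0087 with first wells, -0.55 as log2 of the mean, -0.021 rescaled, -0.044 without doubled names and -0.041 without marked cells. With 1 mouse left out, values at 0 weeks ran from -0.34 to 0.37 for Cyba, -0.65 to 0.15 for Ncf1, -0.27 to 0.59 for Prdx1, -0.11 to 0.33 for Prdx4, -0.51 to 0.19 for Prdx5, -0.033 to 0.22 for Sod2 and -0.080 to 0.25 for Hmox1. Prdx5 at 1 week ran from -0.63 to 0.052, Prdx4 at 6 weeks from -0.39 to 0.021, Prdx1 at 2 less 1 weeks from -0.11 to 0.74, and at 6 less 2 weeks Cybb from -0.22 to 0.31 and Prdx1 from -0.27 to 0.48.

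At 1 week 327 of all genes were called higher and 34 called lower, 40 and 6 with 1500 to 3500 genes, 83 and 7 as log2 of the mean, 170 and 8 with only the 2 groups, 357 and 21 rescaled, and 436 and 67 with the block. At 2 weeks 550 and 204 became 174 and 156 as log2 of the mean and 547 and 125 with at least 2000 genes. At 6 weeks 405 and 125 became 537 and 310 with at least 2000 genes, 464 and 240 with 1500 to 3500, 384 and 197 rescaled, and 322 and 80 without a filter, which at 0 weeks gave 2 and 3. Quantile normalization gave 255 and 111, 502 and 329, and 528 and 348 at 1, 2 and 6 weeks. Leaving out 1 mouse gave 182 to 432 higher and 7 to 44 lower, 349 to 642 and 94 to 237, and 283 to 488 and 53 to 222. Low counts of cells limit shares of rare genes.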

Other observations

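The wells numbered first for a mouse were left out above. In the 19 of 25 such wells with over 8000 genes, Cybb was 28.9 to 39.9 FPKM in 2 CKp25 wells at 2 weeks and 21.5 to 46.8 in 3 at 6 weeks, against 0.838 to 10.4 in 4 CK wells of those weeks. Prdx4 was 75.4 to 132.9 in 3 CKp25 wells and 58.3 to 63.0 in 2 CK wells at 1 week. It was 82.9 to 142 in 2 CKp25 wells and 39.1 to 42.8 in 2 CK wells at 2 weeks. At 6 weeks it was 39.9 to 50.5 in 3 CKp25 wells and 28.5 to 30.8 in 2 CK wells, without overlap, where the mice above overlapped. Hmox1 was 35.01 to 41.4 in CKp25 and 11.3 to 25.5 in CK wells at 2 weeks, and Prdx1 223 to 256.8 and 97.0 to 137. Ncf1 was 109 to 121 in CKp25 and 128 to 177 in CK wells at 6 weeks. Cyba was 757 to 798 in CKp25 and 510 to 512 in CK wells at 2 weeks. Other members overlapped where the mice above did not: Ncf4 was 25.3 to 41.2 in CKp25 and 30.0 to 45.2 in CK wells at 2 weeks, and Sod2 6.76 to 11.9 and 7.69 to 19.6 at 6 weeks. The labels do not say what these wells hold.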
